A study of Mus musculus with 16 samples.

Results

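Cytosolic ribosomal protein genes encode the proteins of the large (Rpl) and small (Rps) subunits of the ribosome that translates nuclear messages. They were taken as every array probe whose symbol is Rpl or Rps followed by a protein number or by one of the P-protein, Rpsa and like names, with the S6 kinases left out. This rule, which uses no measured value, gave 79 of the 25697 probes, 46 of them for the large and 33 for the small subunit, and 61 of the 18097 gene symbols. Detection on at least 3 arrays at a detection p under 0.05 kept 69 of these probes and 56 of these symbols, among 14763 kept probes in all. The 10 probes that were not kept were those of Rpl17, Rpl39l, Rpl6, Rplp2 and Rps23, both undetected Rpl37 probes and 1 probe each of Rpl23, Rps27a and Rpsa. No probe carried the symbol Rpl10, Rpl10l, Rpl7, Rps27 or Rplp0.

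The study measured RNA of whole hamstring muscle from female mice on Illumina BeadChips, with 4 arrays in each of 4 groups. All mice had surgery, either spinal cord injury (SCI) at the lower thoracic level or sham surgery, and all had an intramuscular injection, either cardiotoxin (CDTX), which comes from cobra venom and kills muscle fibres, or saline. Muscle was taken 2 days later. The groups are SCI+CDTX, the one in which the series design says that bone later forms in the muscle, SCI+Saline, Sham+CDTX and Sham+Saline. Strain and age are not given in the sources used here. No label says that the arrays of a group came from separate animals, so p-values measure the spread between these samples.

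Ribosomal proteins are made in step with ribosomal RNA and are assembled with it in the nucleolus. Most of their messages begin with a run of pyrimidines, the 5' terminal oligopyrimidine tract, through which the mTOR pathway sets how strongly they are translated. A few have paralogues used in particular tissues: Rpl3l replaces Rpl3 in mature striated muscle, while Rpl22l1 and Rps27l are close relatives of Rpl22 and Rps27. Many processed pseudogene copies of these genes lie in the mouse genome, and hybridisation of their transcripts to these probes was not tested.

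RefSeq promoter sequences (GRCm38.p6, 250 bases before and 50 after an annotated start) matched 49 of the symbols, with 58 starts. A run of at least 8 C or T bases between 20 bases before and 30 bases after the start was present on the coding strand in 26 of these 58, or 44.8%, against 19% of all 32841 promoters in the table. The motif CCGGAAG, read on either strand, was in 23 of the 58 (39.7%) against 8.86% of all promoters, and its reverse complement can share bases with such a run. These are matches of letters and not measured sites. The 4 start regions printed here, chosen after their sequences were seen, show the run (capitals) around the start, which is base 13 of each line.
Rpl35, chr2:39005114-39005143, minus strand: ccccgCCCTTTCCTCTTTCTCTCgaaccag
Rpl28, chr7:4792953-4792982, plus strand: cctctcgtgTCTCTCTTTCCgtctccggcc
Rps9, chr7:3704029-3704058, plus strand: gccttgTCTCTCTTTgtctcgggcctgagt
Rps10, chr17:27635227-27635256, minus strand: ccgcgcacgCCCCTTCCTTTCCagcctccg

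SCI+CDTX 2 was excluded from the final analysis per its label and was left out, so that 15 arrays entered the fit. Mean raw intensity was 230.5 to 277 on the Sham+Saline arrays and 319.9 to 342.8 on the other 11, and 11114 to 13595 probes were detected per array. All SCI arrays lay on 1 slide and all sham arrays on another, so surgery and slide cannot be told apart, while CDTX and saline were compared within a slide. On both slides the array names end in A to D for CDTX and in E to H for saline. Injection and this letter thus cannot be told apart either. All 14 muscle fibre markers were kept and none was undetected in a group. The Sham+CDTX arrays stood apart in a score built from the differences between probes of 1 gene over 2770 other genes (18.2 to 20.5, against -14 to -3.5 on the other 11 arrays of the fit and 14.8 on SCI+CDTX 2). A fit with this score as a covariate over all 16 arrays was therefore also made, and its values stand beside the main results that involve Sham+CDTX. The score nearly coincides with the Sham+CDTX group, so its slope rests largely on the excluded array SCI+CDTX 2. A call lost or a sign turned with the score thus cannot decide between the main fit and this one. The counts over the other gene lists are without it.

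Ribosomal protein messages were lowest in Sham+Saline muscle and higher in each of the other 3 groups. The median over the 69 probes, relative to the Sham+Saline mean on the log2 scale, was -0.01, 0.09, -0.11 and 0.05 on the Sham+Saline arrays and 0.63, 0.36, 0.49 and 0.57 on the Sham+CDTX arrays. It was 0.67, 0.66, 0.40 and 0.71 on the SCI+Saline arrays and 0.58, 0.91 and 0.74 on the SCI+CDTX arrays. No array of the other groups overlapped Sham+Saline, whereas those groups overlapped each other. Their part of the summed normalized signal was 4.06% to 4.54% in Sham+Saline, 5.93% to 7.1% in Sham+CDTX, 5.38% to 6.69% in SCI+Saline and 6.6% to 7.78% in SCI+CDTX. In whole muscle, fewer cells of a type and less RNA per cell cannot be told apart.

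**Figure D1:**
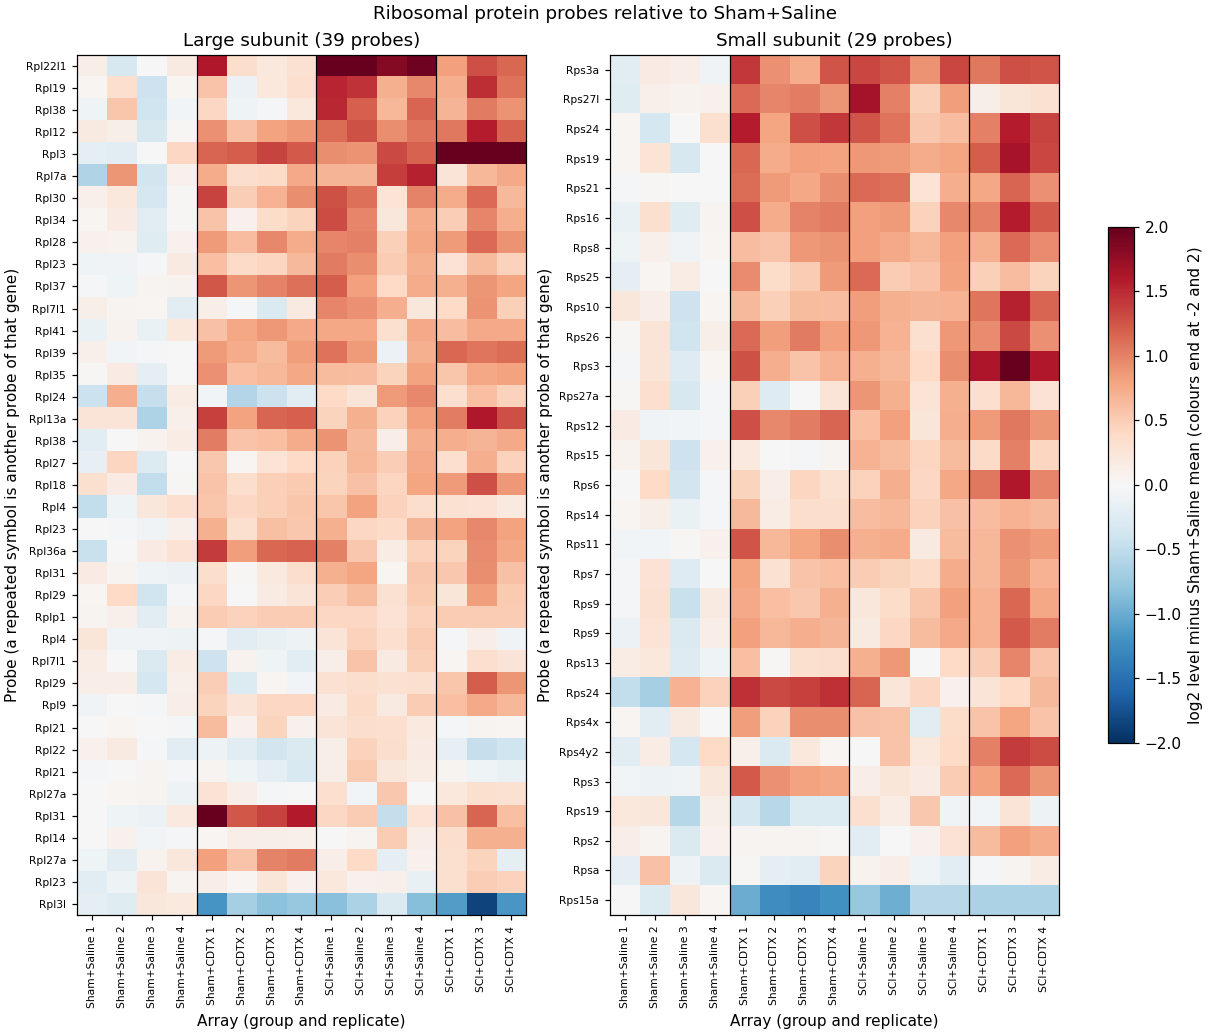
Heat map of 68 of the 69 kept probes (rows, by subunit and then by their SCI+Saline value) on 15 arrays (columns), coloured by log2 level minus the Sham+Saline mean. Most rows are red in the 11 arrays of the other groups, and Rpl3l and Rps15a at the foot of the panels are blue.

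Cardiotoxin in sham mice raised most small subunit messages and many of the large subunit. Between Sham+CDTX and Sham+Saline, 39 of 69 probes were higher (limma, adjusted p under 0.05), where 23.1% of all kept probes were, and 2 were lower, where 25.8% were. Small subunit probes were higher in 20 of 30 cases, the median being 0.69 on the log2 scale, and large subunit probes in 19 of 39, with a median of 0.48, beside -0.04 over all kept probes. Counted by gene with its brightest probe, 33 of 56 genes were higher and 2 lower. With the probe difference score, 16 probes were higher, 13 of them among the 39, and 0 lower (limma), and the median was 0.68, while 11.2% of all probes were higher and 9.5% lower. Median scaling gave a median of 0.84, with 0.32 over all kept probes. The authors' deposited group means gave 0.59, with 0.42 over all probes whose 4 means were above 0. The 10 monocyte and macrophage markers were all higher in Sham+CDTX, their summed level lying at 17148 to 20750 against 966 to 1872 in Sham+Saline, and the 8 proliferation markers rose too (1694 to 2009 against 134 to 538). The macrophage integrin gene Itgam was undetected in both saline groups. The part of these cells in the ribosomal protein values was not tested.

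Spinal cord injury without cardiotoxin gave the largest number of higher probes of the family. Between SCI+Saline and Sham+Saline, 48 of 69 probes were higher, where 14.8% of all kept probes were, and 2 were lower, where 14.6% were. By subunit, 27 of 39 large and 21 of 30 small subunit probes were higher, with medians of 0.56 and 0.60, beside -0.01 over all kept probes. The median of 0.59 over both subunits became 1.00 with median scaling, under which that of all kept probes was 0.17. The sign was positive for 66 of the 69. Both probes that fell were those of Rpl3l and Rps15a. Slide and surgery cannot be told apart here. Of the monocyte and macrophage markers 3 of 10 were higher (739 to 4365 in SCI+Saline against 966 to 1872), and of the 8 proliferation markers 2 were higher and 1, Mcm2, was lower (243 to 699 against 134 to 538). The muscle precursor markers Myod1 and Myog both rose, to a summed level of 996 to 1257 from 68.7 to 148, and they rose in Sham+CDTX too (370 to 527). Their part was not tested.

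**Figure D2:**
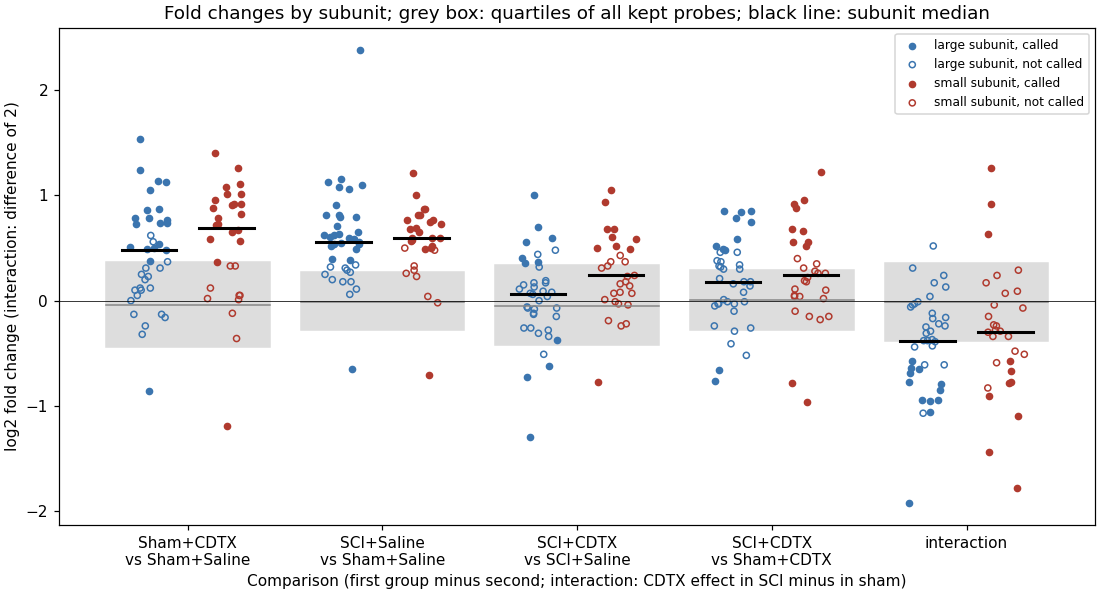
Log2 fold change of each probe in each comparison (filled: adjusted p under 0.05; open: not), for 39 large and 30 small subunit probes, with the subunit median as a black line and the quartiles of all kept probes as a grey box. The subunit medians lie above the grey box in the 2 comparisons with Sham+Saline and inside it in the others.

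Adding cardiotoxin to spinal cord injury changed few of these messages. Between SCI+CDTX and SCI+Saline, 16 of 69 probes were higher, where 20.4% of all kept probes were, so the share of 23.2% was near the background. The 5 that were lower compare with 22.5% of all probes. The higher count fell to 5 without SCI+CDTX 3 and to 10 without SCI+CDTX 4. The share of all kept probes in those fits is not given, so a loss of calls over the whole array cannot be told apart from one in these probes. In the main fit the median was 0.11, and -0.06 after median scaling, when that of all kept probes was 0.06. Large subunit probes had a median of 0.06 and small subunit probes 0.24. Markers of monocytes and macrophages were higher in 10 of 10 cases here too (13298 to 19732 against 739 to 4365), and their part was not tested.

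Between SCI+CDTX and Sham+CDTX, 18 probes were higher, or 26.1% against 14.9% of all kept probes, and 4 lower, against 14.9%. Both subunits gave 9 higher and 2 lower. All 6 kept lymphocyte markers were higher too, as they were in SCI+CDTX against SCI+Saline, and their part was not tested. The count of higher probes changed with the arrays used: it was 9 without SCI+CDTX 3 and 8 over all 16 arrays, when 8.71% of all probes were higher. For fits without 1 array, here and in the interaction, the share of all probes is not given. A loss of calls over the whole array and one in these probes thus cannot be told apart there. It was 0 with the probe difference score, when 1.23% of all probes were higher, so that 0 is near the background. The lower count was 2 without SCI+CDTX 4 and 0 with the score, when 0.528% of all probes were lower. In the interaction, which subtracts the sham CDTX effect from the one under SCI, 20 probes were negative and 3 positive, beside 11.6% and 12% of all kept probes, and the median was -0.34. That negative count was 10 without SCI+CDTX 1, 11 without SCI+CDTX 4 and 13 without SCI+Saline 1, SCI+Saline 2 or Sham+CDTX 4. It was 0 with the score, when 0.234% of all probes were negative, so that 0 is near the background.

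Rpl3, which helps shape the peptidyl transferase centre of the large subunit, and its muscle paralogue Rpl3l moved in opposite directions. The Rpl3 probe (ILMN_2974021, chromosome 15, band 15qE1) lay at 11.35, 11.32, 11.55 and 11.95 log2 in Sham+Saline, at 12.7, 12.76, 12.89 and 12.77 in Sham+CDTX, at 12.47, 12.44, 12.87 and 12.72 in SCI+Saline and at 13.57, 13.67 and 13.64 in SCI+CDTX. Its SCI+CDTX arrays were above all others and its Sham+Saline arrays below all others. The log2 fold change was 1.24 (standard error 0.15, adjusted p 1.92e-06; 2.07 and 0.00217 with the score) for CDTX in sham mice and 1.08 (0.15, 2.6e-05) for SCI with saline. For CDTX in SCI mice it was 1.00 (0.16, 8.06e-05), and for SCI with CDTX 0.85 (0.16, 0.000613). With the score the last was 0.15 (adjusted p 0.868).

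Rpl3l (ILMN_2649810, band 17qA3.3) lay at 13.53, 13.49, 13.96 and 13.93 in Sham+Saline, at 12.55, 13.06, 12.9 and 12.97 in Sham+CDTX, at 12.89, 13.09, 13.44 and 12.87 in SCI+Saline and at 12.61, 11.87 and 12.56 in SCI+CDTX. Sham+Saline did not overlap any other group. The message fell by 0.86 (standard error 0.19, adjusted p 0.000935) with CDTX in sham mice and by 0.65 (0.19, 0.0134) with SCI and saline, where median scaling gave -0.50 (0.0528). With CDTX in SCI mice it fell by 0.73 (0.20, 0.00747), but by 0.49 (adjusted p 0.0773) without SCI+CDTX 3. The value of -0.52 for SCI with CDTX did not pass (adjusted p 0.0615), and with the score the sham value was -1.37 (0.0505). Of the 14 muscle fibre markers, 2 were higher and 2 lower with CDTX in sham mice, where 23.1% and 25.8% of all kept probes were. In SCI mice 0 were higher and 2 lower with CDTX, where 20.4% and 22.5% were. The summed level of these markers was 177501 to 190232 in Sham+CDTX and 192701 to 199361 in Sham+Saline. The part of muscle fibres in the Rpl3l values was not tested.

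Rpl22l1, a paralogue whose level is tied to that of Rpl22 in other cells, had the largest fold change of the family. Its probe (ILMN_2678755, chromosome 3, band 3qA3) lies at bases 160 to 209 of its transcript record. That of Rps27l (ILMN_2624280, chromosome 9, band 9qC) lies at bases 196 to 245. Both are printed because these paralogues had the lowest called interaction values of the family (-1.92 and -1.78).
Rpl22l1: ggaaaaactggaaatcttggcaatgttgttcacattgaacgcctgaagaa
Rps27l: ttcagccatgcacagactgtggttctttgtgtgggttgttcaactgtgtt

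Rpl22l1 lay at 5.73, 5.28, 5.59 and 5.78 in Sham+Saline, 7.19, 5.95, 5.8 and 5.9 in Sham+CDTX, 8.91, 8.03, 7.43 and 7.54 in SCI+Saline and 6.41, 6.88 and 6.74 in SCI+CDTX. SCI+Saline was above every other array. The rise with SCI and saline was 2.38 log2, or 5.22-fold (standard error 0.30, adjusted p 9.54e-06), and CDTX in SCI mice lowered it by 1.30 (0.33, 0.00328). CDTX in sham mice gave 0.62 (adjusted p 0.0982), or -0.91 (0.429) with the score, and the interaction was -1.92 (0.44, 0.00402), or -0.58 (0.783) with the score. Rpl22 itself (ILMN_2659229) fell by 0.62 (0.15, 0.00222) with CDTX in SCI mice, from 9.38 to 9.72 down to 8.79 to 9.09, and did not pass in the other comparisons.

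Rps27l, a p53-responsive relative of Rps27, was higher with either treatment alone than in Sham+Saline, and lower in SCI+CDTX than in either. It lay at 11.59, 11.93, 11.9 and 11.92 in Sham+Saline, 12.97, 12.81, 12.86 and 12.72 in Sham+CDTX, 13.5, 12.84, 12.31 and 12.67 in SCI+Saline and 11.95, 12.08 and 12.14 in SCI+CDTX. Both single-treatment groups stood above all arrays of the other groups. The changes were 1.01 (standard error 0.19, adjusted p 0.000192) for CDTX in sham mice, 1.00 (0.19, 0.000533) for SCI with saline and -0.77 (0.20, 0.00466) for CDTX in SCI mice. SCI+CDTX differed from Sham+CDTX by -0.78 (adjusted p 0.00635), a value that turned to 0.29 (0.753) with the score. The excluded array SCI+CDTX 2 read 12.9, and over all 16 arrays both SCI+CDTX values missed the threshold (-0.56, adjusted p 0.0579, against SCI+Saline and -0.57, 0.0812, against Sham+CDTX). The interaction of -1.78 (0.28, 0.000172) became -0.58 (0.579) with the score, under which the sham CDTX value turned to -0.36 (0.609). Of the other paralogues, Rpl7l1 passed in no comparison by one probe (ILMN_1249606), while the other (ILMN_2661407) gave 0.71 (0.00442) with SCI and saline and 0.59 (0.022) with SCI and CDTX, or 0.40 (0.631) with the score. Rpl39, of the exit tunnel, rose by 0.77 (adjusted p 0.00223) with CDTX in sham mice, 0.49 (0.513) with the score, and 0.63 (0.016) with SCI and saline, the latter lost without SCI+Saline 1 (0.0676) or SCI+Saline 2 (0.0502).

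**Figure D3:**
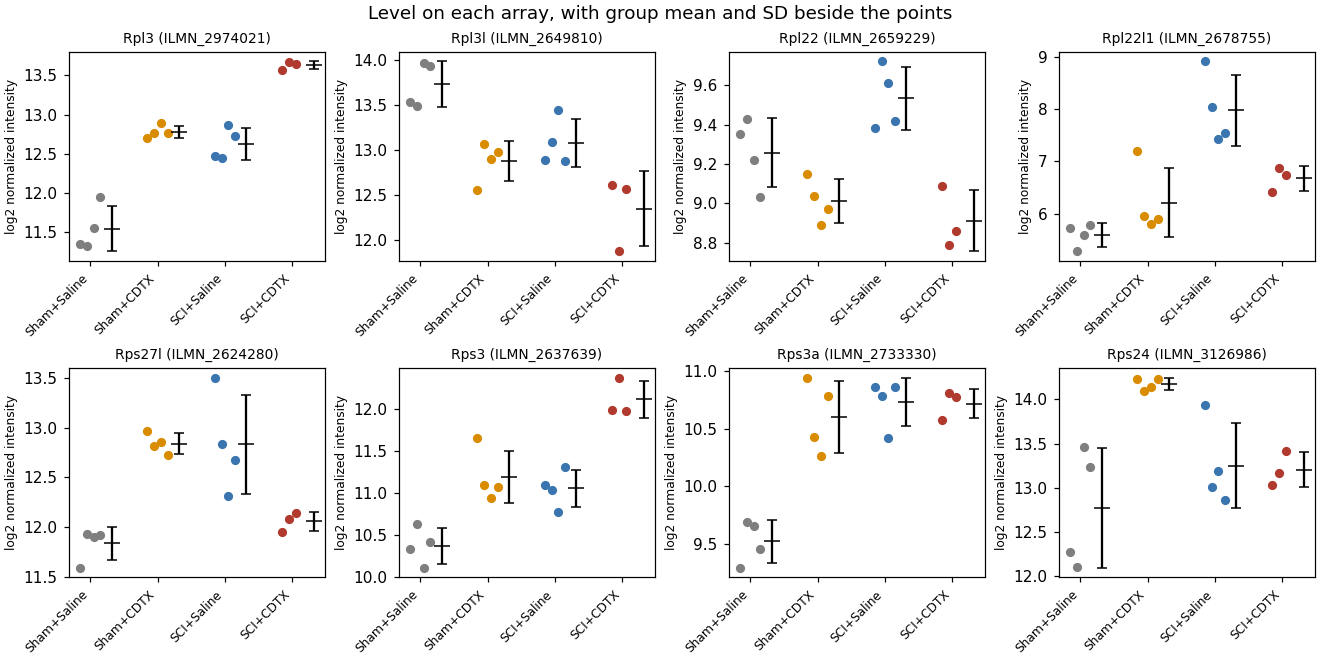
Log2 normalized intensity of 8 probes on each of 15 arrays, by group, with the group mean and SD as a bar beside the points. Rpl3 is highest and Rpl3l lowest in SCI+CDTX, Rpl22l1 is highest in SCI+Saline, and Rps27l is high in Sham+CDTX and SCI+Saline.

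Rps3, at the messenger entry of the small subunit and with a role in DNA repair, was the small subunit gene with the largest rise in SCI+CDTX over SCI+Saline. Its 2 probes, printed to show that they read separate stretches of the message, start at bases 205 and 462.
Rps3, ILMN_2637639: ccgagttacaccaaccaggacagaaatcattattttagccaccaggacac
Rps3, ILMN_2594103: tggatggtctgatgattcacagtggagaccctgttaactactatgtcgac

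The first Rps3 probe lay at 10.34, 10.63, 10.11 and 10.42 in Sham+Saline, 11.65, 11.1, 10.94 and 11.07 in Sham+CDTX, 11.09, 11.04, 10.78 and 11.31 in SCI+Saline and 11.99, 12.37 and 11.98 in SCI+CDTX. SCI+CDTX was above every other array. It rose by 1.05 (standard error 0.19, adjusted p 0.000178) with CDTX in SCI mice and 0.82 (0.17, 0.000633; 1.30 and 0.0393 with the score) in sham mice, by 0.68 (0.17, 0.00561) with SCI and saline and by 0.92 (0.19, 0.000984) with SCI and CDTX. The second Rps3 probe rose with CDTX, by 0.68 (0.15, 0.00152; 0.28 and 0.186 with median scaling) in SCI and 0.92 (0.14, 2.93e-05) in sham mice, the latter 0.82 (0.107) with the score. For the surgery comparisons it gave 0.26 (adjusted p 0.182) and 0.02 (0.945), so its probes differed in which comparisons passed. With the score, SCI with CDTX gave 0.51 (0.496) for the first probe.

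Rps3a, a small subunit protein near the eIF3 contact that RefSeq lists as Rps3a1, and Rps24, needed to process the ribosomal RNA precursor, are shown by the probes that carry their values.
Rps3a, ILMN_2733330: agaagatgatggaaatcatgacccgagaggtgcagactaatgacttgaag
Rps24, ILMN_3126986: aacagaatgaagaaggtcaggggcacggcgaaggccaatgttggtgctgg

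Rps3a lay at 9.29, 9.69, 9.65 and 9.45 in Sham+Saline, 10.94, 10.43, 10.26 and 10.78 in Sham+CDTX, 10.86, 10.78, 10.42 and 10.86 in SCI+Saline and 10.57, 10.81 and 10.77 in SCI+CDTX. Its 3 treated groups overlapped, and all lay above Sham+Saline. It rose by 1.08 (standard error 0.16, adjusted p 2.17e-05) with CDTX in sham mice and by 1.21 (0.16, 1.96e-05) with SCI and saline, and its interaction was -1.10 (0.24, 0.00269). With the score these were 0.29 (0.68), 1.13 (5.55e-05) and -0.39 (0.722).

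Rps24 (ILMN_3126986) lay at 12.28, 12.11, 13.46 and 13.24 in Sham+Saline, 14.23, 14.09, 14.14 and 14.23 in Sham+CDTX, 13.94, 13.01, 13.19 and 12.86 in SCI+Saline and 13.03, 13.17 and 13.42 in SCI+CDTX. Sham+CDTX stood above the rest. The rise was 1.40 (standard error 0.26, adjusted p 0.000233), and SCI+CDTX was lower than Sham+CDTX by 0.96 (0.29, 0.0153), a call lost without SCI+CDTX 1 (0.0647) or SCI+CDTX 3 (0.0522), over all 16 arrays (0.126) and with no detection filter (0.0534). With the score the sham CDTX value turned to -0.27 (0.816) and that of SCI with CDTX to 0.35 (0.806). The second Rps24 probe (ILMN_2625060) rose by 1.26 (4.44e-05) there, 1.62 (0.0393) with the score, and gave 0.04 (0.918) for SCI with CDTX.

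Among other large subunit genes, Rpl13a, also part of an interferon-responsive translation block, rose by 1.13 (adjusted p 8.53e-05) with CDTX in sham mice and by 0.70 (0.0109) in SCI mice, or 0.56 (0.0779) without SCI+CDTX 3 and 0.48 (0.121) over all 16 arrays. Rpl36a rose by 1.14 (8.02e-05) with CDTX in sham mice, or 0.54 (0.457) with the score, and Rpl13a by 2.35 (0.00396) with it. Rpl19 rose by 1.16 (0.000481) and one Rpl38 probe (ILMN_2594971) by 1.13 (0.000327) with SCI and saline. Both also passed for SCI with CDTX, at 0.85 (0.00927) and 0.75 (0.0135), a call that each lost without SCI+CDTX 3 (0.0705 and 0.065) and over all 16 arrays (0.14 and 0.159), and whose sign turned with the score (-0.14 and -0.18).

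Of the small subunit, Rps6, the substrate of S6 kinase, was higher in SCI+CDTX than in Sham+CDTX by 0.88 (adjusted p 0.00142) and than in SCI+Saline by 0.61 (0.0119), or 0.43 (0.104) without SCI+CDTX 3, 0.38 (0.195) over all 16 arrays and 0.25 (0.252) with median scaling. The first of these values turned to -0.07 with the score. Rps2 lay at 13.66, 13.85 and 13.77 in SCI+CDTX and at 12.75 to 13.32 on all other arrays, with a rise of 0.68 over both SCI+Saline (0.00101; 0.33 and 0.0539 with median scaling) and Sham+CDTX (0.0018), the second of which turned to -0.13 with the score. Rps4y2, listed by the array on a non-coding transcript record, was at 6.53, 6.92 and 6.83 in SCI+CDTX and at 5.18 to 6.1 elsewhere, 0.94 (0.000724) over SCI+Saline and 1.22 (0.000117) over Sham+CDTX, or 0.16 (0.906) with the score. Rpsa was read by a probe detected on 6 of 16 arrays and passed in no comparison.

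Rps15a was the small subunit exception. Its probe (ILMN_2717621) lies at bases 5025 to 5074 of its transcript record and had a median raw intensity of 137.1. It read 6.61, 6.34, 6.84 and 6.65 in Sham+Saline, 5.61, 5.37, 5.29 and 5.4 in Sham+CDTX, 5.85, 5.64, 6.06 and 6.06 in SCI+Saline and 5.98, 5.97 and 5.98 in SCI+CDTX. Sham+Saline was above and Sham+CDTX below all other arrays. It fell by 1.19 (standard error 0.14, adjusted p 1.38e-06) with CDTX in sham mice and by 0.71 (0.14, 0.000836; -0.32 and 0.145 with median scaling) with SCI and saline, and its interaction was 1.26 (0.21, 0.000266). With the score the first of these was -0.14 (0.833) and the interaction 0.31 (0.745).

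Probes of the same gene gave the same sign in some comparisons and not in others. Of the 12 genes with at least 2 kept probes (25 probes), all 12 had probes of 1 sign for SCI+Saline against Sham+Saline, where 64.2% of the 2728 other such genes did. Since 66 of the 69 member probes were positive there, most pairs would share a sign however well their probes agreed. The median range between probes of a gene was 0.35 there, against 0.3 in the other genes. The count was 8 (66.7%) for CDTX in sham mice, where 68.5% of other genes did, and 8 (66.7%) for CDTX in SCI mice, where 74.9% did. It was 5 (41.7%) for SCI with CDTX, where 56.7% did. With the score these were 10 for CDTX in sham mice, 7 in SCI mice and 6 for SCI with CDTX. Rps9, at the messenger entry, had the closest pair: its probes gave 0.72 and 0.65 for CDTX in sham mice, 1.56 and 1.52 with the score, and 0.50 and 0.49 for SCI with saline, where both calls were lost without SCI+Saline 3, SCI+Saline 4, Sham+Saline 1 or Sham+Saline 3 (adjusted p 0.0613 to 0.132), and that of ILMN_2643092 also over all 16 arrays (0.066) and with no detection filter (0.0585). They share 2 bases (capitals), at bases 251 and 252 of the transcript record.
Rps9, ILMN_2643092: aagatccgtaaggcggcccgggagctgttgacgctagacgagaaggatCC
Rps9, ILMN_1377921: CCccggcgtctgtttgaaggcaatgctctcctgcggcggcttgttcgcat

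The widest pairs in Sham+CDTX against Sham+Saline were those of Rpl31 (a range of 1.31), Rps19 (1.24), Rpl27a (0.76) and Rpl4 (0.63). The dimmer Rpl4 probe (ILMN_2631003) was detected on 0 of 4 arrays in each of these groups. The dimmer Rpl27a probe (ILMN_1221403) was detected on 1 Sham+CDTX and 0 Sham+Saline arrays. The ranges of these genes thus rest on undetected values, which also enter the counts over the 12 genes. The Rpl31 probe at base 449 (ILMN_3073486) gave 1.54 (adjusted p 7.36e-06; 1.19 and 0.112 with the score) and the one at base 60 (ILMN_3152328) 0.23 (0.263). For SCI with CDTX the first gave -0.76 (0.0158), lost without SCI+CDTX 1 (0.0715), SCI+CDTX 4 (0.0784) or Sham+CDTX 1 (0.054), and the second 0.46 (0.057). With the score these were -0.56 (0.545) and 0.06 (0.967). The sequence of the second is printed because it stands for Rpl31 in the counts by gene.
Rpl31, ILMN_3152328: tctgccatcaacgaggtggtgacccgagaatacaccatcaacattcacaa

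The Rps19 pair gave 0.88 (8e-05) and -0.36 (0.102), or 1.78 and 0.86 with the score, the latter from a probe at base 40 with a median raw intensity of 122. The Rpl27a probes start at bases 833 and 858 and have 25 bases in common, cgactggtcacttaatactggacag, but one was detected on 16 arrays and the other on 6, and on 0 Sham+Saline arrays. The first gave 0.86 (0.000368), or -0.04 (0.957) with the score; the second was detected on 1 of 4 Sham+CDTX arrays and gives no fold change here. Of the 22 member probes that start past base 600, 9 were not detected on all 16 arrays, and of the 57 that start earlier, 6.

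**Figure D4:**
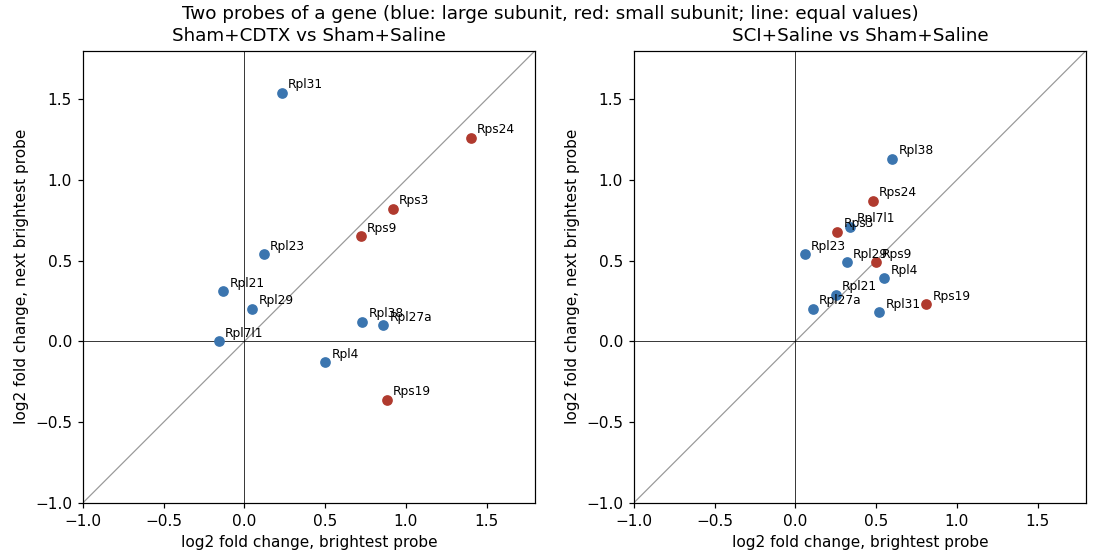
Log2 fold change of the brightest (x axis) and next brightest (y axis) probe of 12 genes in 2 comparisons; the diagonal marks equal values. In SCI+Saline against Sham+Saline all 12 points have positive values on both axes, while Rpl31 and Rps19 lie far from the diagonal in Sham+CDTX against Sham+Saline.

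The other genes of translation did not all follow the ribosomal proteins. Their counts are to be read against all kept probes, of which 14.8% were higher and 14.6% lower with SCI and saline, 23.1% and 25.8% with CDTX in sham mice, and 20.4% and 22.5% with CDTX in SCI mice. Of 62 kept genes of ribosome assembly and rRNA synthesis, 39 were higher and 0 lower with SCI and saline, among them Tsr1, of small subunit maturation, at 1.45 (adjusted p 1.27e-06). With CDTX in sham mice 19 were higher and 10 lower, and in SCI mice 8 and 17. Of 18 elongation and other TOP genes, 9 were higher and 0 lower with SCI and saline, and 6 and 3 with CDTX in sham mice, led by Vim, a mesenchymal filament gene (2.33, 4.02e-07). Of 26 initiation factors, 9 were higher and 0 lower with SCI and saline, led by Eif6, which keeps the subunits apart (1.39, 2.47e-06), and 8 and 9 with CDTX in sham mice, near the shares over all kept probes. Of 22 genes of mTOR and Myc control, 4 were higher and 3 lower with SCI and saline, near the shares over all kept probes. The translation repressor Eif4ebp1 rose by 1.94 (8.64e-08) there, and Sesn1, an mTORC1 inhibitor, fell by 1.58 (2.92e-06). Rack1, a small subunit protein whose symbol the rule does not match, rose by 1.67 (3.97e-06).

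Mitochondrial ribosomal proteins, which build the separate ribosome of the mitochondrion, moved otherwise. With CDTX, 40 of 70 were lower and 2 higher in sham mice and 46 lower and 1 higher in SCI mice, with medians of -0.45 and -0.56. With SCI and saline 21 were higher and 10 lower, the latter near the 14.6% of all kept probes, with a median of 0.07. The lowest value in sham mice was that of Mrpl2, -2.05 (adjusted p 3.86e-09), and in SCI mice that of Mrpl30, -1.32 (0.000249). The difference between the cytosolic and the mitochondrial lists was not tested.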

How the data were processed

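The deposited table holds, per the file headers, mean bead intensity for each probe and array with no normalization or background subtraction, and detection p-values that the authors deposited beside it. The authors also deposited group means of intensity after average normalization, used here only for direction and for medians of log2 ratios. The submitters' processing notes name GenomeStudio 2011.1, and the file headers name gene expression module version 1.9.0. The genome build of the array annotation is not given in the sources used here.

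Intensities of 15 arrays were background-corrected from the detection p-values, quantile normalized and put on the log2 scale after an offset of 16, which shrinks fold changes of dim probes (neqc in limma version 3.58.1, R 4.3.3, with the data.table package, version 1.17.8, for reading). A probe needed detection p-values under 0.05 on 3 arrays. One model of 4 group means (lmFit, eBayes) gave 5 contrasts with Benjamini-Hochberg adjustment over all kept probes, called at 0.05. limma gave every adjusted p-value printed, and the fit was checked on simulated data.

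Genes named are, per comparison, the 4 highest and 4 lowest called probes whose groups did not overlap (for the interaction, called probes), the paralogue set, Rps6 and Rpsa, the 4 genes with the widest and the 4 with the closest probes, and the highest or lowest called genes of the lists. Others are named with their values as chosen after these were seen. Members, lists and tests were chosen with earlier results of these data known. Values of 1 member gene are not reported here, though it is in all counts and medians.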

Additional observations from a re-analysis of the deposited data

Results flagged for a closer look

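Some arrays stood apart from the others of their group, in 7 of the 105 groups of values examined, where chance flags about 1 in 20. The median of all ribosomal protein probes was 0.4 on SCI+Saline 3 and 0.66 to 0.71 on the other SCI+Saline arrays. Rpl22l1 was 7.19 on Sham+CDTX 1 and 5.8 to 5.95 on the others. Rps27l was 11.59 on Sham+Saline 1 and 11.9 to 11.93 on the others. Rps3 (ILMN_2594103) was 11.86 on Sham+Saline 4 against 11.54 to 11.59, and Rpl29 (ILMN_2857570) was 10.68 on Sham+Saline 3 against 11.13 to 11.16. Rpl4 (ILMN_2631003), detected on 0 Sham+Saline arrays, was 4.73 on Sham+Saline 1 against 4.4 to 4.43. Rps19 (ILMN_2754355) was 4.77 on Sham+Saline 3 against 5.46 to 5.57.

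The effect of CDTX differed between SCI and sham mice for several members by limma's interaction term. It was lower in SCI mice for Rpl22l1 (-1.92), Rps27l (-1.78), Rps24 (-1.44), Rps3a (-1.1), Rpl36a (-0.95), Rpl31 (-0.94), Rpl4 (-0.79) and Rpl27a (-0.77). It was higher for Rps15a (1.26), Rps4y2 (0.92) and Rps2 (0.63). None of these passed when the probe difference score was a covariate, a fit in which 0.234% of all probes were negative and 0.0602% positive. Over all 16 arrays limma lost the calls of Rps24 (adjusted p 0.0875), Rpl4 (0.0695), Rpl27a (0.0944), Rps4y2 (0.22) and Rps2 (0.224). In that fit 4.54% of all kept probes were negative and 5.7% positive. Of the 15 fits without 1 array, 8 lost the call of Rpl31, 7 that of Rpl27a and 4 that of Rps2. For Rpl36a and Rpl4 it was 1 each.

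SCI+CDTX 2, which entered no comparison of the main fit, had a median of 0.51 relative to Sham+Saline in the 16-array normalization, where the Sham+Saline arrays lay at -0.11 to 0.09.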

How the results depend on the processing

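In SCI+Saline against Sham+Saline, 40 to 59 probes were higher under the alternatives. The 59 came with median scaling, when 30% of all kept probes were higher, and the 40 over all 16 arrays, when 12.1% were. Counting 1 probe per gene gave 39. Member probes above a raw intensity of 1000, a setting chosen after seeing the data, gave 38 of 47 (80.9%). Of the other kept probes above 1000, 22.6% were higher. The cause of the changes listed here was not tested. Over all 16 arrays, SCI+CDTX against SCI+Saline gave 9 higher, beside 17% of all kept probes. SCI+CDTX against Sham+CDTX gave 8 higher and 2 lower there, beside 8.71% and 8.77%. The interaction gave 1 positive and 13 negative, beside 5.7% and 4.54%. With the probe difference score, Sham+CDTX against Sham+Saline gave 16 higher and 0 lower, beside 11.2% and 9.5% of all probes. SCI+CDTX against Sham+CDTX gave 0 in each direction, beside 1.23% and 0.528%, with a small subunit median of -0.07. The interaction gave 0 in each direction, beside 0.0602% positive and 0.234% negative. Median scaling gave 7 higher for SCI+CDTX against SCI+Saline, beside 28.2% of all kept probes. The medians there were -0.06 (all), -0.11 (large) and -0.03 (small). For SCI+Saline against Sham+Saline it gave a median of 1.00 and 0 lower, beside 0.17 and 4.71% over all kept probes. Its median for Sham+CDTX against Sham+Saline was 0.84, beside 0.32. It gave 47 negative interactions, when 26.4% of all kept probes were negative and their median was -0.24. The large subunit median for SCI+CDTX against SCI+Saline was -0.01 with no detection filter and -0.01 in the authors' deposited table. In that table the median was 0.06 over all members and 0.35 over all probes with 4 group means above 0. It was 0.59 and 0.42 for Sham+CDTX against Sham+Saline, and 0.65 and 0.08 for SCI+Saline against Sham+Saline. Of the 47 member probes above 1000, 2 were lower in each SCI+CDTX comparison, 1 was lower in each Sham+Saline comparison and 1 interaction was positive. Of the other kept probes above 1000, 33.8% were lower in SCI+CDTX against SCI+Saline and 24.4% against Sham+CDTX. Against Sham+Saline, 34.6% of them were lower in Sham+CDTX and 20.3% in SCI+Saline, and 16% had a positive interaction.

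The values with the score rest largely on SCI+CDTX 2. With the score, signs turned for Rps27l (-0.36), Rps24 ILMN_3126986 (-0.27), Rpl27a (-0.04) and Rpl4 (-0.24) in Sham+CDTX against Sham+Saline. In SCI+CDTX against Sham+CDTX they turned for Rps27l (0.29), Rps24 (0.35), Rps15a (-0.3), Rps6 (-0.07), Rpl19 (-0.14), Rpl38 (-0.18), Rps2 (-0.13), Rpl29 (-0.51) and Rps19 (-0.22), and in the interaction for Rps4y2 (-0.25), Rps24 (0.02) and Rps2 (-0.26).

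Leaving out 1 array gave 5 to 17 higher for SCI+CDTX against SCI+Saline, with a large subunit median of -0.04 (without SCI+CDTX 3) to 0.1. It gave 9 to 20 higher and 2 to 5 lower for SCI+CDTX against Sham+CDTX, and 10 to 25 negative interactions. Shares of all kept probes are not given for the fits without 1 array. Same-numbered arrays of different groups did not deviate together (21 pairs, r from -0.27 to 0.38, 3 over 0.1), so the numbers were not taken to pair samples; with the replicate block 12, 39, 16 and 45 probes were higher in the comparisons SCI+CDTX with SCI+Saline, Sham+CDTX with Sham+Saline, SCI+CDTX with Sham+CDTX and SCI+Saline with Sham+Saline, and 4 of 82 named calls were lost. With that block 19%, 22.7%, 13.6% and 14.3% of all kept probes were higher, in the same order of comparisons. The number of arrays limits precision.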

Other observations

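Markers of other cells moved as follows, and their part in the ribosomal protein values was not tested. Fibroadipogenic progenitor markers were higher with CDTX in 6 of 6 cases in sham mice and in 4 of 6 in SCI mice. Endothelial markers were lower in 4 of 6 cases with CDTX in sham mice and in 5 of 6 with SCI and saline. Neutrophil markers were higher in 2 of 6 cases in each of these comparisons with Sham+Saline. Their summed level was 79.9 to 10659 in Sham+Saline, 614 to 965 in Sham+CDTX and 2072 to 12600 in SCI+Saline, so these groups overlapped. Of all kept probes, 23.1% were higher and 25.8% lower with CDTX in sham mice. The shares were 14.8% and 14.6% with SCI and saline, and 20.4% and 22.5% with CDTX in SCI mice. Of 3 Schwann cell markers, 0 passed with CDTX in either surgery (limma) and 1 was lower with SCI and saline.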
